A study of Danio rerio with 12 samples.

Results

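What the removal of the RNA sensor Mda5 does to gene expression once Zbtb24 is already gone was asked by comparing zebrafish larvae mutant for both mda5 and zbtb24 (the double mutants) with larvae mutant for zbtb24 alone. The comparison took its members from the genotype labels and used no measured value: 3 double mutant libraries were set against 3 zbtb24 mutant libraries, which makes 6 of the 12 libraries of the study. Of the 32271 features in the expression table, the 21623 with a mean of at least 0.5 FPKM (fragments mapped to a transcript, divided by its length in kilobases and scaled to library size) over all 12 libraries were tested.

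Each library held polyadenylated RNA from a pool of 10 homozygous larvae at 3 weeks of age. The zbtb24 allele, mk22, lacks about 8 kb of the gene, coding exons included, and the mda5 allele, mk29, lacks 7 bases within the helicase-coding part. Both groups of the comparison were homozygous for mk22, and they differed in whether they also carried mk29. The remaining 6 libraries came from 3 pools of larvae with mk29 alone (the mda5 mutants) and 3 pools of wild-type larvae (WT). Each genotype rests on 1 germline allele of each gene that is present in every cell, and pooling hides differences between animals, so the tests below measure the spread between pools.

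Zbtb24 is a zinc finger protein whose human counterpart is mutated in ICF syndrome, a disorder of immunodeficiency and of reduced DNA methylation at the repeats that flank centromeres. Mda5, encoded by ifih1, is a helicase that binds long double-stranded RNA in the cytoplasm. Bound Mda5 signals through the mitochondrial adaptor Mavs and the kinases Tbk1 and Ikbke to Irf3 and Irf7, which switch on interferon genes. Secreted interferon then acts through Stat2 and Irf9 to induce interferon-stimulated genes, many of them antiviral, and the sensors themselves belong to that set.

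The reagents that define the alleles compared are shown here, since they tell which gene was cut and how the genotypes were read. In the guide, capitals mark the stretch that differs from the study's mavs guide, and lower case the leading bases that both guides have. Whether those leading bases belong to the mda5 target was not determined. The guide RNA that directed Cas9 to mda5 and the primer pairs used to genotype mk29 and mk22 were, 5′ to 3′:
mda5 guide: ggTGATAAACACTGCGACCC
mk29 forward primer: gctcactggaggatcaccat
mk29 reverse primer: accaccttgttgaccaggac
mk22 primer P1: agtcctcgctctgcactcag
mk22 primer P3: ctcttggcggtgaaacactt

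The labels give the tissue as fin, whereas the study's description gives whole larvae. All 12 phototransduction genes, all 11 exocrine pancreas genes and all 9 neuron and glia genes examined passed the expression filter, so the libraries held RNA from organs outside the fin. Replicate libraries of a genotype correlated across features at r = 0.911 to 0.957 on the log2 scale. The lowest values belonged to zbtb24 mutant replicate 3, which correlated at 0.911 and 0.926 with its 2 companions, while those correlated at 0.951 with each other. In that library 630 features were at least 2-fold above and 855 at least 2-fold below the mean of its companions, against at most 332 above and 322 below in the other 5 libraries compared. Values without it are therefore given beside many, but not all, of the results that moved with it. The 4 most abundant features took 84.2% to 89.9% of the summed FPKM of a library, and the sequencing depth is not known from these values.

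The targeted genes were examined first. The level of ifih1 was 1.35, 1.87 and 1.54 FPKM in the zbtb24 mutants and 0.573, 0.559 and 0.381 in the double mutants, with 0.354, 0.613 and 0.493 in mda5 mutants and 0.751, 0.732 and 0.820 in WT. No library with the mda5 mutation reached the level of any library without it, the difference between double and zbtb24 mutants was −1.05 ± 0.15 (log2, SE), and it missed the threshold (limma, adjusted p = 0.109). Because mk29 removes only 7 bases, the level of the transcript does not show whether protein was made. The level of zbtb24 was 1.74, 1.40 and 1.06 FPKM in zbtb24 mutants and 1.40, 1.23 and 1.47 in double mutants, and at most 0.587 in the 6 libraries with an intact zbtb24 gene. The zbtb24 level thus overlapped between the 2 groups compared (log2 difference −0.01 ± 0.15), and it was higher, not lower, in all 6 libraries labelled as carrying mk22. A value for the whole gene does not tell which of its exons the reads came from, so it checks neither the deletion nor the labels. The ICF gene cdca7, a target of ZBTB24 in human cells, does bear on the labels. Its level was 0.0118, 0.0676 and 0.0665 FPKM in zbtb24 mutants and 0.0445, 0.0587 and 0.101 in double mutants, against 2.53 to 3.48 in the 6 libraries without mk22. Every library labelled as carrying mk22 thus lay far below every library that did not, and the 2 groups compared overlapped for this gene.

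Across the transcriptome, 1 feature passed the adjusted threshold of 0.05 in the comparison of double with zbtb24 mutants, 0.00462% of those tested. It was ENSDARG00000082123, which has no symbol in the tables used here, and it fell. Its level was 2663, 2668 and 2459 FPKM in zbtb24 mutants and was listed at 0 in all 3 double mutants (limma, adjusted p = 8.75e-10). It was likewise listed at 0 in the 3 mda5 mutants and stood at 7795, 3430 and 6814 FPKM in WT, so that it was absent from the table's values wherever mda5 was mutated, with or without Zbtb24. Across all genotypes, values of 0 also occurred beside values of at least 100 FPKM in replicates of the same genotype for 42 to 59 features per genotype, but ENSDARG00000082123 was at 0 in whole groups. Another feature without a symbol, seen among those with the smallest p values, was at 0 in 1 whole group of this comparison, in the other direction. How many features were at 0 in a whole group was not counted. ENSDARG00000102909 was listed at 0 in all 3 zbtb24 mutants and stood at 1887, 1546 and 2577 FPKM in double mutants. It was also listed at 0 in all 3 mda5 mutants and in 1 of 3 WT libraries, so unlike ENSDARG00000082123 it did not follow the mda5 genotype. It missed the threshold (limma, adjusted p = 0.317), though it passed with only the 6 libraries compared (1.04e-05) and without WT replicate 3 (3.09e-08). The next smallest adjusted p values after that of ENSDARG00000082123 were 0.108 (limma), for zgc:152658 and dkk1b.

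Without adjustment, 3109 features had p under 0.05 where 1081 would be expected by the number tested, 1674 higher (7.74%) and 1435 lower (6.64%) in double mutants. The libraries of the 2 groups did not overlap for 2527 features higher (11.7%) and 2093 lower (9.68%) in double mutants. Of these, 67 higher and 85 lower differed at least 2-fold, and the median difference over all features was 0.02 on the log2 scale. The count of 3109 was 1938 without zbtb24 mutant replicate 3, 1847 without double mutant replicate 1 and 1844 without double mutant replicate 2.

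Interferon-stimulated genes were lower in double mutants. All 25 tested members had a lower mean level in double mutants than in zbtb24 mutants, with a median log2 difference of −0.93 and a range from −3.16 to −0.20. For 16 of the 25 the libraries did not overlap, beside 9.68% of all features in that direction, and 16 had an unadjusted p under 0.05, beside 6.64%. No member passed the adjusted threshold, and the smallest adjusted p among them was 0.109 (limma), which was 0.0369 without zbtb24 mutant replicate 1. Without zbtb24 mutant replicate 3 the median was −0.75, with 24 of 25 members lower and 20 not overlapping. Such counts rise by construction with fewer libraries: over all 21623 features, those lower without overlap went from 2093 to 3190. Of the 26 members located in the table, ifit10 lay below the expression filter.

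The members furthest apart were antiviral effectors. The level of rsad2, which encodes the antiviral enzyme viperin, was 3.92, 27.13 and 19.3 FPKM in zbtb24 mutants and 0.817, 0.954 and 1.25 in double mutants. All 3 double mutant libraries lay below those of the zbtb24 mutants, a difference of −3.16 ± 0.73 on the log2 scale (limma, adjusted p = 0.317). WT, at 0.922, 4.22 and 1.21 FPKM, overlapped both the double mutants and the zbtb24 mutants. Isg15, a ubiquitin-like modifier, was at 5.33, 22.6 and 48.4 FPKM in zbtb24 mutants and at 2.15, 3.15 and 3.87 in double mutants, again without overlap (−2.43 ± 0.83, and −1.74 without zbtb24 mutant replicate 3). The tetratricopeptide gene ifit14 was at 2.25, 5.28 and 31.0 FPKM against 1.74, 0.0922 and 1.18. Its groups did not overlap either, but the gap between the nearest libraries was small, and the difference of −2.60 ± 0.89 was −1.61 without zbtb24 mutant replicate 3. Its relative ifit15, which is not in the list, differed by −2.62 ± 0.82 (−2.03 without that replicate), from 2.67, 9.31 and 18.6 to 1.99, 0.179 and 1.01 FPKM. Ifit8, low throughout, differed by −1.97 ± 0.76, which was −0.82 without that replicate. For rsad2, isg15, ifit14 and ifit8 the zbtb24 mutants overlapped WT, unlike for 17 of the 25 members, which were higher in zbtb24 mutants without overlap.

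Further members were named after their values were seen. The GTPase gene mxe was at 3.32, 6.27 and 4.90 FPKM in zbtb24 mutants and at 1.2, 1.19 and 0.454 in double mutants. This non-overlapping difference of −1.89 ± 0.27 had the smallest adjusted p of the group (limma, 0.109). Its relative mxa differed by −1.35 ± 0.35, and mxc, at 8.90, 15.2 and 8.49 against 5.82, 7.38 and 8.09 FPKM, by −0.54 ± 0.25, with the nearest libraries almost touching and a difference of −0.29 without zbtb24 mutant replicate 2. Mx proteins block viral nucleocapsids, and the 3 genes differed in where the double mutants stood. For mxa and mxe double mutant replicate 3 lay within the WT range, while for mxc all 3 double mutants lay above the WT libraries, at 3.36, 1.86 and 2.56 FPKM.

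The transcription factors through which interferon acts differed unevenly. Stat2 differed by −0.67 ± 0.21 with no overlap, which was −0.44 without zbtb24 mutant replicate 3, whereas irf9 overlapped at −0.20 ± 0.15, which was −0.34 without it. The feedback inhibitors were also lower in double mutants, socs1 by −1.29 ± 0.41 (−0.86 without it) and usp18, a protease that removes Isg15 from proteins, by −0.61 ± 0.17, both without overlap. Most members varied with the pool: zbtb24 mutant replicate 1 had the lowest level of the 3 zbtb24 mutant libraries for 15 of the 25 genes, and double mutant replicate 1 the highest of the 3 double mutants for 17. Without zbtb24 mutant replicate 1, 5 features passed the adjusted threshold, among them the RNA sensing gene pkz (−1.47, limma adjusted p = 0.0244).

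**Figure D1:**
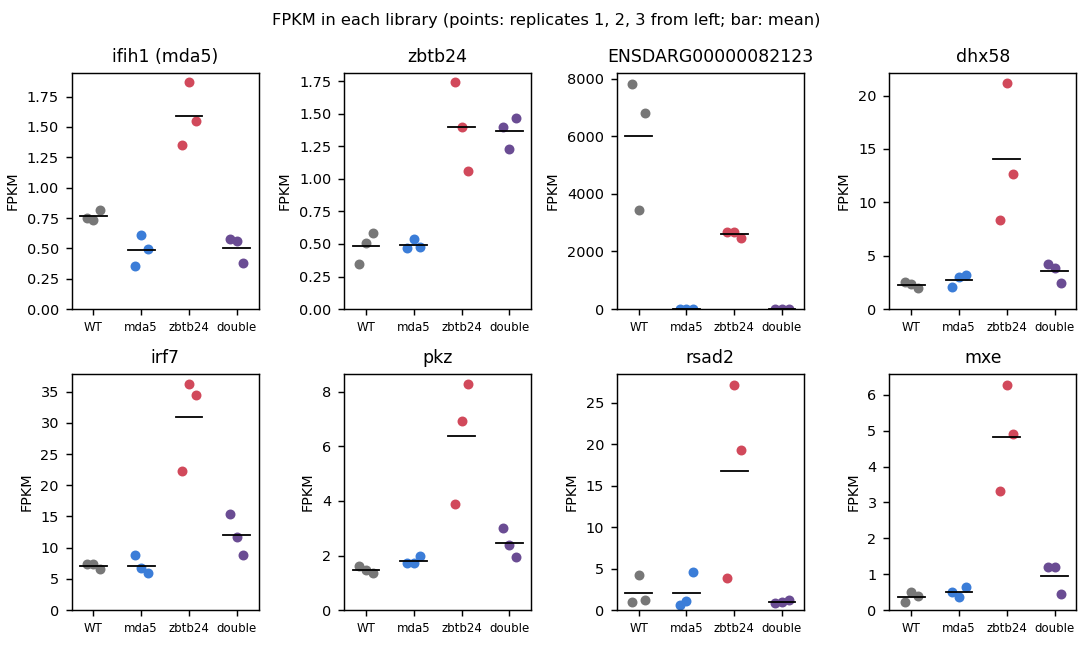
Level in FPKM (y axis, from 0) of 8 genes in each of the 12 libraries, grouped on the x axis by genotype (WT, mda5 mutant, zbtb24 mutant, double mutant), with 1 point per pool and a bar at the mean. For dhx58, irf7, pkz, rsad2 and mxe the 3 double mutant pools lay below the 3 zbtb24 mutant pools, whereas ENSDARG00000082123 was listed at 0 in every pool with the mda5 mutation.

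**Figure D2:**
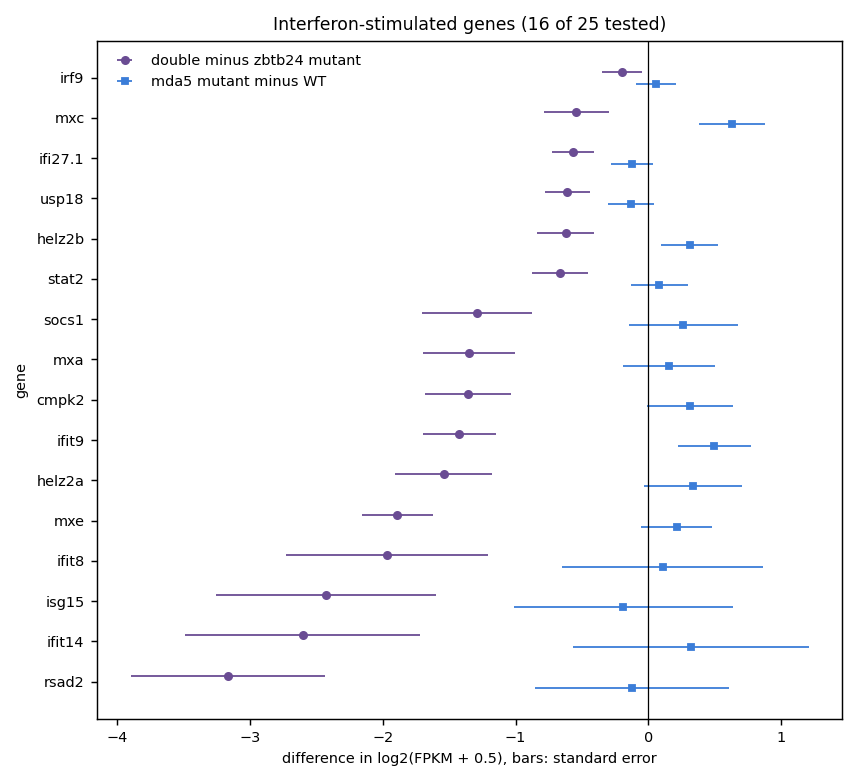
Log2 difference (x axis, on log2(FPKM + 0.5), with SE) between double and zbtb24 mutants for 16 of the 25 tested interferon-stimulated genes (y axis), beside the difference between mda5 mutants and WT. All 16 points of the comparison of double with zbtb24 mutants lay below 0, and 12 of the 16 points of the other comparison lay above it.

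Genes of the RNA sensing pathway itself were lower in 11 of 14 cases, with a median of −0.29, and 6 of the 14 did not overlap, beside 9.68% of all features. An unadjusted p under 0.05 was reached by 7 genes, all lower in double mutants, beside 6.64% of all features in that direction. None passed the adjusted threshold (limma, smallest adjusted p 0.109, for ifih1). Ifih1, the gene that the mda5 allele alters, is itself counted among the 11, the 6 and the 7. Dhx58, the Mda5 relative also called Lgp2, was at 8.37, 21.1 and 12.7 FPKM in zbtb24 mutants and at 4.26, 3.88 and 2.46 in double mutants (−1.79 ± 0.30, without overlap). WT stood at 2.51, 2.39 and 1.96, so double mutant replicates 1 and 2 lay above every WT library and replicate 3 within the WT range. Irf7 was at 22.3, 36.3 and 34.4 FPKM against 15.4, 11.7 and 8.79. Its groups did not overlap (−1.34 ± 0.23, limma adjusted p = 0.270), and the double mutants still lay above every WT library, of which the highest was 7.44 FPKM. Irf3 differed by −0.74 ± 0.23, from 2.22, 3.30 and 3.74 to 1.93, 1.75 and 1.22 FPKM.

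Among other genes for proteins that bind or edit nucleic acids, pkz, a fish kinase with domains for Z-form nucleic acid, was at 3.89, 6.94 and 8.30 FPKM in zbtb24 mutants and at 3.0, 2.40 and 1.93 in double mutants (−1.18 ± 0.23). Adar, which edits double-stranded RNA, was at 8.38, 9.59 and 10.1 against 6.81, 7.37 and 7.14 FPKM, a small difference of −0.37 ± 0.11 without overlap. The kinase gene eif2ak2, whose product binds double-stranded RNA, overlapped at 1.90, 3.24 and 2.39 against 2.08, 1.71 and 1.07 FPKM (−0.51 ± 0.21). The adaptor gene mavs overlapped at 8.36, 9.67 and 8.39 against 11.2, 9.26 and 7.31 FPKM (0.05 ± 0.15), and so did tlr3, an endosomal receptor of double-stranded RNA (0.07 ± 0.15). The 6 members without overlap were thus ifih1, dhx58, irf7, irf3, pkz and adar.

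The comparison was next set beside that of mda5 mutants with WT, which shares no library with it and asks what the same allele does where Zbtb24 is present. There the 25 interferon-stimulated genes had a median log2 difference of 0.21, with 21 higher and 4 lower in mda5 mutants, and 5 higher without overlap beside 7.7% of all features. ENSDARG00000082123 was again the 1 feature of 21623, or 0.00462%, that passed the adjusted threshold. The difference between the differences (the interaction, below 0 where the mda5 mutation lowered a level more in the zbtb24 mutant background) had a median of −1.29 over the 25 genes. Of them, 12 had an unadjusted interaction p under 0.05 and a negative sign, beside 11.8% of all features. Over all features, 0 interactions passed the adjusted threshold in limma (smallest adjusted p 0.0943) and 5434 had an unadjusted p under 0.05, but 2161 passed when WT replicate 2 was left out. Across the 21623 features the differences of the 2 comparisons correlated at r = −0.21 and rho = −0.46, as a description over features that share the composition of the same 12 libraries.

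Read against the other genotypes, the zbtb24 mutants had the highest mean of the 4 genotypes for all 25 interferon-stimulated genes. The double mutants had a mean above WT for 20 and above mda5 mutants for 14 of the 25. Without overlap, 17 of the 25 were higher in zbtb24 mutants than in WT, beside 15.6% of all features, but 4 were higher in double mutants than in WT, beside 9.27%, among them ifit9, mxc and usp18. Double mutants exceeded mda5 mutants without overlap for 3, irf9, mxc and usp18, beside 12%. As the mean of the list relative to WT, the zbtb24 mutants stood at 0.84, 1.56 and 1.78 log2 units and the double mutants at 0.46, 0.15 and 0.11. The groups did not overlap, and every double mutant pool lay nearer to the WT mean than any zbtb24 mutant pool did. The mda5 mutants stood at −0.01, 0.26 and 0.36, a range that overlapped the double mutants.

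**Figure D3:**
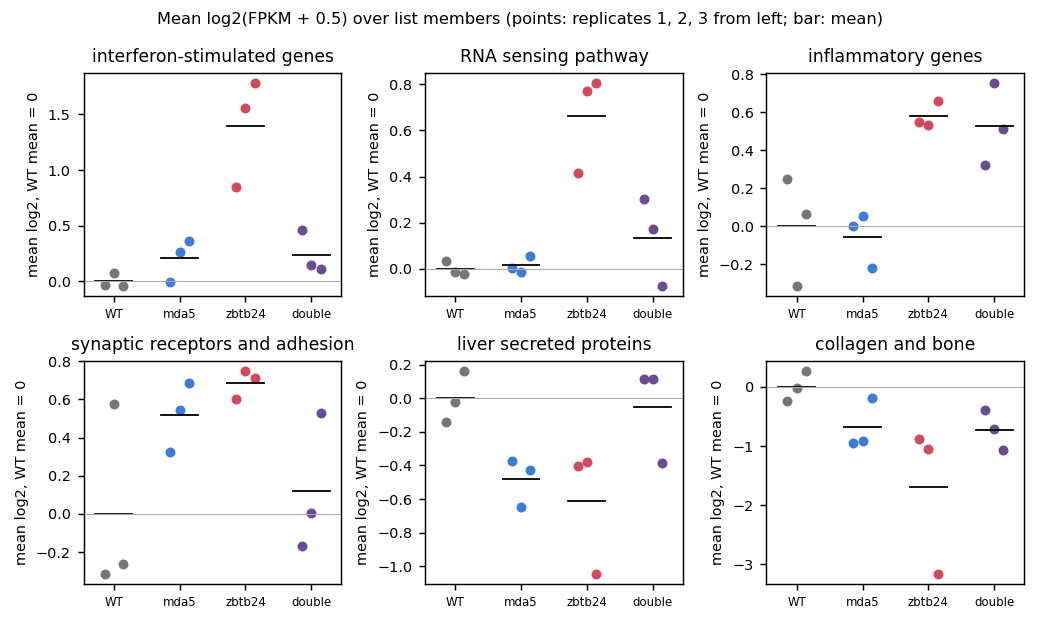
Mean log2(FPKM + 0.5) of gene lists relative to the WT mean (y axis) in each of the 12 libraries, grouped by genotype on the x axis, with 1 point per pool and a bar at the mean. For interferon-stimulated genes the 3 zbtb24 mutant pools stood at 0.84, 1.56 and 1.78 and the double mutants at 0.46, 0.15 and 0.11.

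Inflammatory genes did not share the pattern. Of 11 tested, 5 were lower and 6 higher in double mutants, the median was 0.04, and 1 member, irg1l, did not overlap, a share close to the 9.68% of all features lower without overlap. Irg1l, which encodes the macrophage enzyme that makes itaconate, was at 64.8, 53.04 and 51.3 FPKM in zbtb24 mutants and 33.3, 49.2 and 41.1 in double mutants (−0.46 ± 0.41), all far above WT at 8.55, 3.02 and 5.82. The neutrophil chemokine gene cxcl8a overlapped between the groups (0.17 ± 0.24, and 0.03 without zbtb24 mutant replicate 3), as did the collagenase gene mmp13a (−0.42 ± 0.39). The mean of the list relative to WT was 0.55, 0.53 and 0.66 in zbtb24 mutants and 0.32, 0.75 and 0.51 in double mutants, which overlapped. In whole-larva RNA, fewer cells of a type and less RNA per cell cannot be told apart.

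Markers of immune cells were examined beside these genes. The 6 myeloid markers split evenly, 3 lower and 3 higher, and the macrophage gene mpeg1 ENSDARG00000043093 overlapped at 51.4, 34.6 and 53.6 against 29.97, 43.8 and 27.9 FPKM. All 5 lymphoid markers were higher in double mutants (median 0.38), and 2 did not overlap, beside 11.7% of all features. Rag1, which recombines antigen receptor genes, was at 9.67, 12.9 and 4.64 against 15.4, 16.6 and 11.2 FPKM, and its difference of 0.73 ± 0.30 was 0.33 without zbtb24 mutant replicate 3. Cd4-1, a T cell co-receptor, did not overlap (0.37 ± 0.18), nor did ikzf1, a lymphoid transcription factor (0.29 ± 0.14). As a mean over the list relative to WT, myeloid markers stood at 0.16, 0.00 and 0.63 log2 units in zbtb24 mutants and at 0.06, 0.52 and −0.12 in double mutants, and lymphoid markers at −0.21, 0.00 and −0.67 against 0.23, 0.34 and −0.07. Myeloid markers thus overlapped between the groups where the interferon-stimulated genes did not.

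Among complement and antigen presentation genes, 9 of 12 were lower in double mutants, with a median of −0.28, and 0 of the 12 were without overlap. Outside this list, tap1, a peptide transporter induced by interferon, differed by −0.58 ± 0.24 with overlapping libraries. Its difference was −0.88 without zbtb24 mutant replicate 3 and −0.36 without zbtb24 mutant replicate 2. The 10 genes tied to ICF syndrome and DNA methylation had a median of 0.06, with 3 lower and 7 higher. Cdca7b, a relative of the ICF gene CDCA7, was at 3.42, 2.64 and 1.93 against 3.10, 3.56 and 3.52 FPKM (0.32 ± 0.18), and the remodeller gene hells overlapped at 0.16 ± 0.13. Without zbtb24 mutant replicate 3 these were 0.15 and 0.05, the median of this list was −0.07 and 7 of the 10 were lower, so its sign rests on that library. Dnmt3a ENSDARG00000005394, a de novo DNA methyltransferase gene, was lower without overlap (−0.42 ± 0.26, limma adjusted p = 0.446). It was the 1 such member of 10, a share close to the 9.68% of all features lower without overlap.

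Lists of neuronal genes differed in direction. The members of the synaptic, channel, neuronal RNA-binding and sensory cell lists all came from the study's own list of genes near differentially methylated regions. Those regions were called between fins of adult zbtb24 mutants and wild-type siblings, so these genes are not a neutral sample of neuronal genes. The neurons and glia and phototransduction lists were not drawn from it. Synaptic, channel and neuronal RNA-binding genes had lower levels in double mutants. The neurons and glia list held 5 lower and 4 higher of 9 (median −0.12), and sensory cell genes 2 lower and 2 higher. Of 12 phototransduction genes 11 were higher (median 0.32), but 0 of the 12 were without overlap. Neurons and glia stood, as list means relative to WT, at 0.14, 0.20 and −0.33 in zbtb24 mutants and −0.40, −0.24 and 0.175 in double mutants. Phototransduction stood at −0.15, −0.21 and −0.70 against 0.04, 0.33 and −0.62. Both lists thus overlapped between the groups, and in both zbtb24 mutant replicate 3 was the lowest zbtb24 mutant pool. All 7 synaptic genes were lower (median −0.57), and 4 of them did not overlap, gabbr1b and gria4 among them, beside 9.68% of all features. The GABA receptor gene gabbr1b was at 3.62, 4.37 and 4.64 FPKM in zbtb24 mutants and 1.43, 1.57 and 2.96 in double mutants (−0.97 ± 0.31). The glutamate receptor gene gria4 differed by −0.57 ± 0.22. Double mutant replicate 3 was the nearest to the zbtb24 mutants for each of these genes. Of 6 neuronal channel and transporter genes 5 were lower (median −0.57), among them kcnc3a, a potassium channel gene, at −0.76 ± 0.29 without overlap. All 5 neuronal RNA-binding and transcription factor genes were lower (median −0.39), but elavl4, at 39.5, 41.9 and 39.5 against 17.9, 20.8 and 39.8 FPKM, overlapped through double mutant replicate 3.

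The WT pools were themselves spread for these genes. For elavl3, a general neuronal RNA-binding protein gene of the neurons and glia list, WT stood at 21.9, 40.1 and 19.2 FPKM, which spans the double mutants at 22.8, 28.2 and 37.7 and overlaps the zbtb24 mutants at 39.4, 46.6 and 41.0. WT replicate 2 was the high library, and in the mean of the synaptic list relative to WT it stood at 0.57 against −0.31 and −0.26 for its companions. In mda5 mutants against WT the synaptic median was 0.48, the opposite sign. The synaptic median was −0.57 without zbtb24 mutant replicate 3, so it did not rest on that library.

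Genes induced by cell activity followed in the same direction. Egr1, an immediate early transcription factor gene, was at 50.9, 57.3 and 49.7 FPKM in zbtb24 mutants and 30.9, 45.2 and 33.5 in double mutants (−0.54 ± 0.14). Npas4 ENSDARG00000055752, a neuronal activity-dependent factor, was at 5.62, 7.55 and 5.06 against 1.73, 2.72 and 3.10 (−1.14 ± 0.25). FOSL1, an AP-1 subunit gene, was at 3.77, 4.03 and 5.87 against 2.2, 1.77 and 1.1 (−1.22 ± 0.34). None of the 3 overlapped. FOSL1 came from the study's list of genes near differentially methylated regions, not from the list of immediate early genes, and npas4 is in both. Of the 8 immediate early genes 7 were lower (median −0.41), and 2 did not overlap, beside 9.68% of all features. Of 16 circadian genes 10 were lower and 6 higher (median −0.08). The core clock gene clock ENSDARG00000011703 was lower without overlap (−0.43 ± 0.14), as was per1 ENSDARG00000012499 (−0.32 ± 0.15), which was −0.18 without zbtb24 mutant replicate 3. Heat shock and chaperone genes were mixed, with 7 of 10 lower and 3 higher (median −0.18). Of these, 2 were lower and 1 higher without overlap, beside 9.68% and 11.7% of all features. The lowest member, the heat shock gene hsp70.3, was low in both groups, at 1.94, 1.71 and 0.803 against 0.373, 0.733 and 0.592 FPKM (−0.86 ± 0.23).

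Genes of liver, skeleton and muscle were higher in double mutants, and here zbtb24 mutant replicate 3 set much of the size. All 13 genes of the liver list were higher (median 0.57), 2 of them without overlap, close to the 11.7% of all features higher without overlap. Outside the list, the heme-binding hemopexin gene hpxa was at 3.13, 1.45 and 0.215 FPKM in zbtb24 mutants and 20.7, 12.6 and 4.18 in double mutants. These did not overlap (2.67 ± 0.83, and 2.04 without zbtb24 mutant replicate 3) and lay below WT at 40.6, 139.7 and 43.7. Transferrin, encoded by the iron carrier gene tfa, was at 880.1, 852 and 367 against 2028, 1670.2 and 883 FPKM, with the nearest libraries almost touching, and its difference of 1.15 ± 0.42 was 0.73 without zbtb24 mutant replicate 3. Fga, a fibrinogen chain gene, overlapped (0.21 ± 0.25, and 0.39 without it). Without zbtb24 mutant replicate 3 the median of the liver list was 0.34, and all 13 members were still higher.

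Collagen and bone genes were higher for all 11 members with a median of 1.1, which was 0.26 with 1 member lower once zbtb24 mutant replicate 3 was left out. Col1a1a, a fibrillar collagen gene, was at 303, 264 and 33.3 FPKM in zbtb24 mutants and 446, 345 and 297 in double mutants, which overlapped, and its difference of 1.36 ± 0.70 was 0.34 without that library. The hypertrophic cartilage collagen gene col10a1 ENSDARG00000054753 was at 177, 152 and 18.5 against 289, 219 and 204 (1.55 ± 0.67, and 0.52 without it). Outside this list ifitm5, a bone gene of a family otherwise known for interferon-induced members, was at 9.71, 9.51 and 0.545 against 19.997, 12.4 and 13.97 (1.72 ± 0.72, and 0.63 without it). Serpinh1 ENSDARG00000075954, a collagen chaperone gene and the highest member of the heat shock and chaperone list, differed by 0.61 ± 0.23, and by 0.29 without that library. Of 15 muscle genes 14 were higher with a median of 0.46, which was 0.24 without it. Skeletal actin, acta1 ENSDARG00000055618, was at 201, 397 and 17.2 against 230, 391 and 371 FPKM, so its groups overlapped, and its difference of 1.52 ± 0.86 was 0.19 without the 1 low library. Medians of these 3 lists relative to WT were negative in mda5 mutants, at −0.50 for liver, −0.73 for collagen and bone and −0.41 for muscle.

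**Figure D4:**
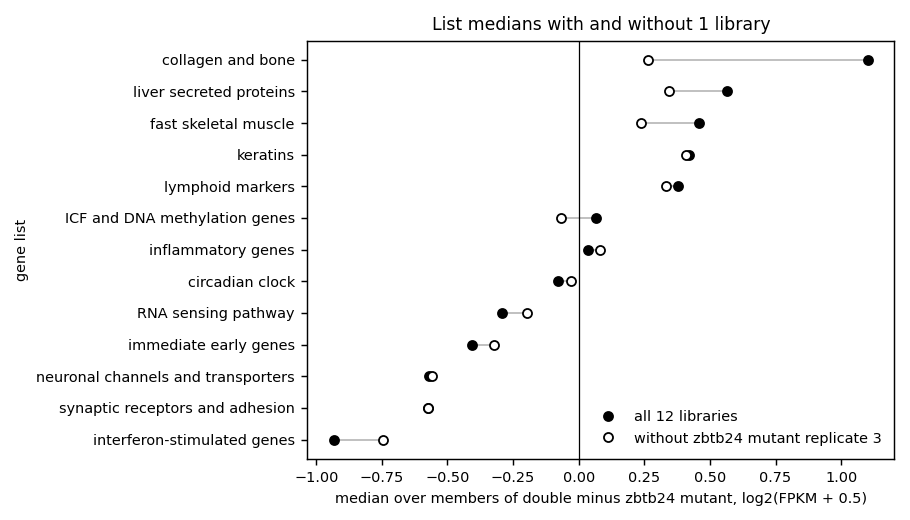
Median log2 difference (x axis) of 13 gene lists (y axis) between double and zbtb24 mutants, with all 12 libraries in the fit and without zbtb24 mutant replicate 3. The interferon-stimulated genes stood at −0.93 and −0.75, whereas collagen and bone genes moved from 1.1 to 0.26.

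Epithelial keratin genes were mixed in size and direction. Of 7 tested, 6 were higher (median 0.42) and 3 of them, krt4, krt17 and cyt1, did not overlap, beside 11.7% of all features. Krt4 was at 925, 1149.6 and 1001 FPKM in zbtb24 mutants and 1280.4, 1383 and 1446 in double mutants (0.42 ± 0.16). The exception was cyt1l, at 16.96, 30.9 and 9.98 against 4.54, 6.0 and 7.21 FPKM, lower without overlap (−1.5 ± 0.62). Among metabolic genes, fbp1b, a gluconeogenic phosphatase gene, was higher without overlap at 103, 119 and 67.6 against 159, 166 and 122 FPKM (0.65 ± 0.22, and 0.41 without zbtb24 mutant replicate 3). DNA replication genes were higher for 16 of 17 with a median of 0.16, and 1 was higher without overlap, beside 11.7% of all features. Their mean relative to WT was 0.08, 0.09 and −0.46 log2 units in zbtb24 mutants and −0.01, 0.34 and 0.19 in double mutants. The groups thus overlapped, and the lowest library was zbtb24 mutant replicate 3. Ccng1, which encodes cyclin G1 and came from the list of p53 targets, was at 400.1, 401 and 275 against 417, 540.2 and 468 FPKM (0.42 ± 0.17, and 0.24 without zbtb24 mutant replicate 3), without overlap. It was the most raised member of that list, of which 7 of 11 were lower and 4 higher (median −0.04). In that list 2 members were higher without overlap, beside 11.7% of all features.

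Outside the lists, the genes at the ends of the ranking were drawn by size among those without overlap. The genes lowest in double mutants after rsad2 were si:dkey-211g8.8 and si:dkey-266f7.5. The level of si:dkey-211g8.8 was 4.31, 6.28 and 57.7 FPKM against 2.01, 0.317 and 1.94 (−2.86 ± 0.98, and −1.74 without zbtb24 mutant replicate 3). For si:dkey-266f7.5 the zbtb24 mutants stood at 4.39, 5.31 and 1.23 FPKM and the double mutants at no more than 0.0111, but WT and mda5 mutants each held libraries above 5 FPKM and libraries listed at 0. Igldcp followed at 5.58, 14.6 and 39.3 against 2.47, 1.32 and 2.40 FPKM (−2.62 ± 0.69, and −1.94 without zbtb24 mutant replicate 3). Cdk19, which encodes a kinase of the Mediator complex, was at 1.47, 14.8 and 9.57 against 1.29, 1.06 and 1.01 FPKM, with WT spread as widely at 1.01, 16.1 and 15.2. Col28a2a, a collagen gene, was lower at 6.49, 5.55 and 1.75 against 0.462, 0.687 and 0.728 (−2.03 ± 0.45), and it was lower without overlap in mda5 mutants than in WT too (−1.73), as 12.6% of all features were.

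At the upper end after hpxa stood ppp1r3d ENSDARG00000077513, a regulatory subunit gene of a glycogen phosphatase, at 0.0615, 0.0798 and 2.25 FPKM in zbtb24 mutants and 3.36, 7.31 and 2.56 in double mutants (2.23 ± 1.03). Gatm, which encodes the first enzyme of creatine synthesis, was at 23.3, 18.3 and 3.72 against 49.3, 33.6 and 26.7 FPKM (1.54 ± 0.53, and 0.76 without zbtb24 mutant replicate 3). The cytochrome P450 gene cyp2x8 was at 4.31, 4.0 and 0.279 against 10.6, 7.39 and 4.49 (1.57 ± 0.60, and 0.71 without it). The galectin-like gene lgals1l1 was at 26.6, 7.69 and 46.8 against 57.7, 51.6 and 65.3 (1.42 ± 0.66), which was 0.71 without zbtb24 mutant replicate 2. Among features without a symbol and with no library at 0, ENSDARG00000098204 was lowest at 2.92, 7.06 and 11.5 against 1.81, 1.5 and 0.905 FPKM, and ENSDARG00000101770 highest at 0.0708, 6.37 and 0.0517 against 8.21, 18.01 and 18.1.

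The 2 genes next to the threshold differed in direction and were named after their values were seen. The level of zgc:152658 was 5.11, 6.28 and 7.06 FPKM in zbtb24 mutants and 2.32, 2.17 and 1.73 in double mutants, without overlap (−1.37 ± 0.17, limma adjusted p = 0.108). All 3 double mutants remained above the highest WT library, at 1.05 FPKM. Dkk1b, which encodes a secreted Wnt antagonist, was at 1.30, 1.17 and 1.09 against 2.13, 2.39 and 2.23, higher in double mutants without overlap (0.71 ± 0.09, limma adjusted p = 0.108). Its mda5 mutant and WT libraries lay between these groups, at 1.60 to 1.87 FPKM.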

How the data were processed

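Zebrafish larvae of 4 genotypes with 3 pools each were profiled by stranded sequencing of polyadenylated RNA. The authors trimmed reads with Trimmomatic 0.33, aligned them to GRCz10 with TopHat2 2.1.1 and quantified them with Cufflinks 2.2.1, and they deposited FPKM values per feature, normalized across libraries by Cuffnorm. All 12 columns were used. Log2(FPKM + 0.5) was fitted with limma 3.58.1 (R 4.3.3, eBayes with trend) on 4 genotype means over 12 libraries with 8 residual degrees of freedom, for the 21623 features whose mean reached 0.5 FPKM, with Benjamini-Hochberg adjustment over all of them. Differences and SEs in the report are on that scale, which understates changes of low genes. Symbols came from a gene table for 26418 features, and the study's own symbol list brought this to 26426. The fit was run on simulated data with independent noise for each feature. Those data held no outlying library such as zbtb24 mutant replicate 3, and the outcome is not given here.

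The genotypes compared and the gene lists were chosen with earlier results of these data known. Named genes were those past the threshold, the targeted genes, the 10 highest and 10 lowest with a symbol and a mean of at least 1 FPKM among those without overlap, the ends of each list, and up to 2 features on each side without a symbol; other list members were named after their values were seen. Same-numbered pools did not deviate together (correlations 0.08, −0.03 and 0.04), so replicates were not paired. Some items are not reported here. Alternatives were other pseudocounts, filters, scalings, fits, a 2-fold minimum, a replicate block and leaving out each library.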

Additional observations from a re-analysis of the deposited data

Results flagged for a closer look

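For 12 genes the libraries of double and zbtb24 mutants did not overlap in 1 direction, and those of mda5 mutants and WT did not overlap in the other. The difference between the 2 differences was tested as the limma interaction, and none of the 12 passed the adjusted threshold. The genes examined for this were those named in the report. Part of these were named because they did not overlap in the first comparison, so the 12 cannot be read as a share of all features. Over all features, too, the differences of the 2 comparisons tended to run in opposite directions (rho = −0.46).

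The genes below 0, lower with the mda5 mutation where Zbtb24 was missing and higher where it was present, included 4 of antiviral defence. The interaction was −1.92 for ifit9 (limma, adjusted p = 0.0943), −1.17 for mxc (0.106), −1.40 for pkz (0.101) and −0.64 for adar (0.101). For ifit9 the levels were 2.13, 2.23 and 3.86 FPKM in zbtb24 mutants, 1.2, 0.627 and 0.346 in double mutants, 0.394, 0.458 and 0.852 in mda5 mutants and 0.247, 0.301 and 0.188 in WT. The circadian genes clock ENSDARG00000011703 and per1 ENSDARG00000012499 stood at −0.90 (limma, adjusted p = 0.101) and −1.14 (0.0943). For si:dkey-211g8.8 it was −4.91 (limma, adjusted p = 0.102), with WT at 0.0880, 0.144 and 0.0856 FPKM and mda5 mutants at 5.91, 0.154 and 3.31.

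The genes above 0 were ifitm5 at 2.72 (limma, adjusted p = 0.141), col10a1 ENSDARG00000054753 at 2.28 (0.171), gatm at 2.18 (0.122), serpinh1 ENSDARG00000075954 at 0.85 (0.147) and ccng1 at 0.86 (0.102). For all 5 of these the lowest zbtb24 mutant library was replicate 3, the library that stands apart. Without it the difference between double and zbtb24 mutants was 0.63 for ifitm5, 0.52 for col10a1 ENSDARG00000054753, 0.76 for gatm, 0.29 for serpinh1 ENSDARG00000075954 and 0.24 for ccng1.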

How the results depend on the processing

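The direction of the interferon-stimulated genes held under every alternative tried: their median was −1.26 to −0.71 when each library was left out in turn, with 24 or 25 of 25 lower, and that of the RNA sensing genes was −0.39 to −0.20. The smallest adjusted p among interferon-stimulated genes (limma) was 0.0713 with pseudocount 1 and 0.37 with only the 6 libraries compared, and 0.0369 to 0.35 over left-out libraries, passing without zbtb24 mutant replicate 1. The number of features past the threshold was 2 with pseudocount 1, 2 with quantile normalization and 2 with only the 6 libraries, and 1 to 5 when a library was left out. For mda5 mutants against WT it was 3 with quantile normalization and 3 with only the 6 libraries, and 1 to 3 over left-out libraries, and for the interaction 0 to 2161. Unadjusted counts were 1844 to 3838 and non-overlapping counts 4620 to 8296 over left-out libraries, the latter rising by construction with fewer libraries in a group. A 2-fold minimum left 174 of the unadjusted and 152 of the non-overlapping features, 1203 interactions and 4 RNA sensing genes. With the replicate number as a block, 1 feature passed, 2947 had an unadjusted p under 0.05 and 5099 interactions did, so the block changed no call.

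Signs near 0 were not stable over left-out libraries. The log2 difference ranged from −0.15 to 0.12 for zbtb24 (0.0392 with quantile normalization), −0.0893 to 0.20 for mavs, −0.0499 to 0.23 for tlr3 and −0.85 to 0.11 for mmp13a. The median ranged from −0.16 to 0.0798 for inflammatory genes and −0.066 to 0.17 for ICF and DNA methylation genes. Depth is unknown from FPKM values, so the precision of low genes rests on the spread between 3 pools.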

Other observations

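Setting all 6 libraries with the mda5 mutation against the 6 without it, in both zbtb24 backgrounds, 26 features separated completely, 7 lower (0.0324% of those tested) and 19 higher (0.0879%) with the mutation. This contrast was chosen after the data were seen and is given without a test. How many features would separate in this way without any effect of the mutation was not estimated. The count therefore does not show an effect, and the features named below are descriptions only. Besides ENSDARG00000082123 and ifih1, the lower features included mettl5, which encodes an RNA methyltransferase, at −0.39 between double and zbtb24 mutants and −0.68 between mda5 mutants and WT. The higher ones included the cytochrome P450 gene cyp3a65, at 0.80 and 0.81, the receptor gene gpr39, at 0.54 and 0.43, and the ciliary gene ttc21b, at 0.35 and 0.50. Of the 19 features that could be matched to the zebrafish assembly GRCz12tu, 5 lay on the chromosome that carries ifih1 (26.3%), namely ifih1, ttc21b, carf, mettl5 and gpr39, beside 3.74% of the 14645 matched features tested. Ifih1 itself defines that chromosome, so its place among the 5 is by construction and raises the share. The mutation and the sequence linked to it cannot be told apart in these libraries.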
